A study of Mus musculus with 16 samples.

Results

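The interaction of genotype and ethanol diet asks of each gene whether ethanol (EtOH) changed its transcript level in the ileum of fat-1 mice by a different factor than in their wild-type (WT) littermates. It is the log2 fold change of fat-1 EtOH against fat-1 pair-fed (PF) mice minus that of WT EtOH against WT PF mice. A positive value means that EtOH raised the gene more, or lowered it less, in fat-1 than in WT mice. All 16 libraries of the study entered it, and of the 21965 genes counted, 13811 passed a filter on low counts and were tested.

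All mice were male C57BL/6. The 4 WT PF and 4 fat-1 PF mice drank a liquid diet without EtOH, pair-fed to the EtOH mice with maltose dextrin in its place. In the same diet of the 3 WT EtOH and the 5 fat-1 EtOH animals, EtOH was stepped up to 6% (v/v), which they received for the last 3 weeks. The mice were 8 to 10 weeks old when the diets began, feeding lasted about 6 weeks, and RNA came from about 1.5 cm of the terminal ileum, with 1 library per mouse. The fat-1 mice were heterozygous (labelled Fat1+/-) for a transgene that expresses the C. elegans n3 fatty acid desaturase in all tissues. The transgene is no row of the mouse gene table, so the genotype labels could not be checked by it.

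As background, the fat-1 enzyme, which mammals lack, turns n6 polyunsaturated fatty acids (PUFAs) into n3 PUFAs, and the mice are used to raise n3 PUFAs without changing the diet. The small intestine changes along its length: the proximal part absorbs sugars, fat and folate and carries a high load of drug-metabolizing enzymes, while the terminal ileum takes up bile acids through Slc10a2 and Fabp6. Fatty acids are ligands of nuclear receptors that control fatty acid oxidation, and oxidized EtOH enters lipid metabolism as acetyl-CoA.

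The libraries held 8422645 to 11438539 counted reads. Values of single mice are given in CPM (counts relative to library totals scaled by TMM), where 3 counts were 0.246 to 0.421 CPM. PF mice had the library numbers 1 to 8 and EtOH mice 9 to 16, so that library order cannot be told apart from diet. Within each diet the numbers of the genotypes are interleaved. Of the 16 libraries, 5 stood apart on the lists of region genes, and they lie in the groups that set the interaction. The summed level of 9 tested genes of the large intestine was 12787 and 13861 CPM in fat-1 EtOH mice 3 and 4 and 5476 CPM in WT EtOH mouse 2, and between 379 and 645 CPM in the other mice. The summed level of 8 genes of ileal bile acid handling was 496 and 444 CPM in fat-1 PF mice 2 and 4, and between 1085 and 8314 CPM in the other mice. In these same fat-1 PF mice the 19 genes of the proximal small intestine summed to 70595 and 68217 CPM, above the 6575 to 25172 CPM of the other PF mice. The terminal ileum label is thus not carried equally by all libraries. Below, the medians of most lists and many values of single genes are given without these 5 beside the value with all 16. On the PF diet the biological coefficient of variation between mice (edgeR) was 0.145 for WT and 0.255 for fat-1, and on EtOH it was 0.173 for WT and 0.408 for fat-1.

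No gene passed the interaction test after adjustment: 0 of 13811 (0%) had a Benjamini-Hochberg adjusted p of 0.05 or less in edgeR's quasi-likelihood test, and the smallest adjusted p was 0.595. At an unadjusted p under 0.05 there were 1141 genes, 8.26% of those tested, beside the 5% that the threshold stands for. Of these, 483 (3.5% of genes tested) were positive and 658 (4.76%) negative. The Wald test of DESeq2 also called 0 genes, with a smallest adjusted p of 0.0533 and 1237 genes at an unadjusted p under 0.05, and limma voom with sample quality weights called 0, with 1286. In all 28 alternatives run, the adjusted count was 0. With 1 mouse left out, the unadjusted count ran from 664 (without WT PF mouse 4, the 1 mouse that moved it by over 1.5 times) to 1676 (without fat-1 EtOH mouse 2). Without the 3 libraries high in large intestine genes it was 689 (5%), and without the 2 fat-1 PF libraries low in bile acid genes 526 (3.73%). Without all 5 it was 425 (3.1%), of which 134 were among the 1141. The 5 are mice 2 and 4 of the 4 fat-1 PF mice, mouse 2 of the 3 WT EtOH mice and mice 3 and 4 of the 5 fat-1 EtOH mice. Fewer mice per group mean less power, so a p of 0.05 or more in these fits does not show that an interaction is absent. The direction split depended on the scaling and on the libraries: 42.3% of the unadjusted genes were positive with TMM and 69.9% with upper-quartile normalization, which moved the median interaction of all genes from 0.01 to 0.11 (log2). With TMM, 51.2% were positive without the 3 libraries, 62.5% without the 2 and 60.7% without all 5.

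**Figure D1:**
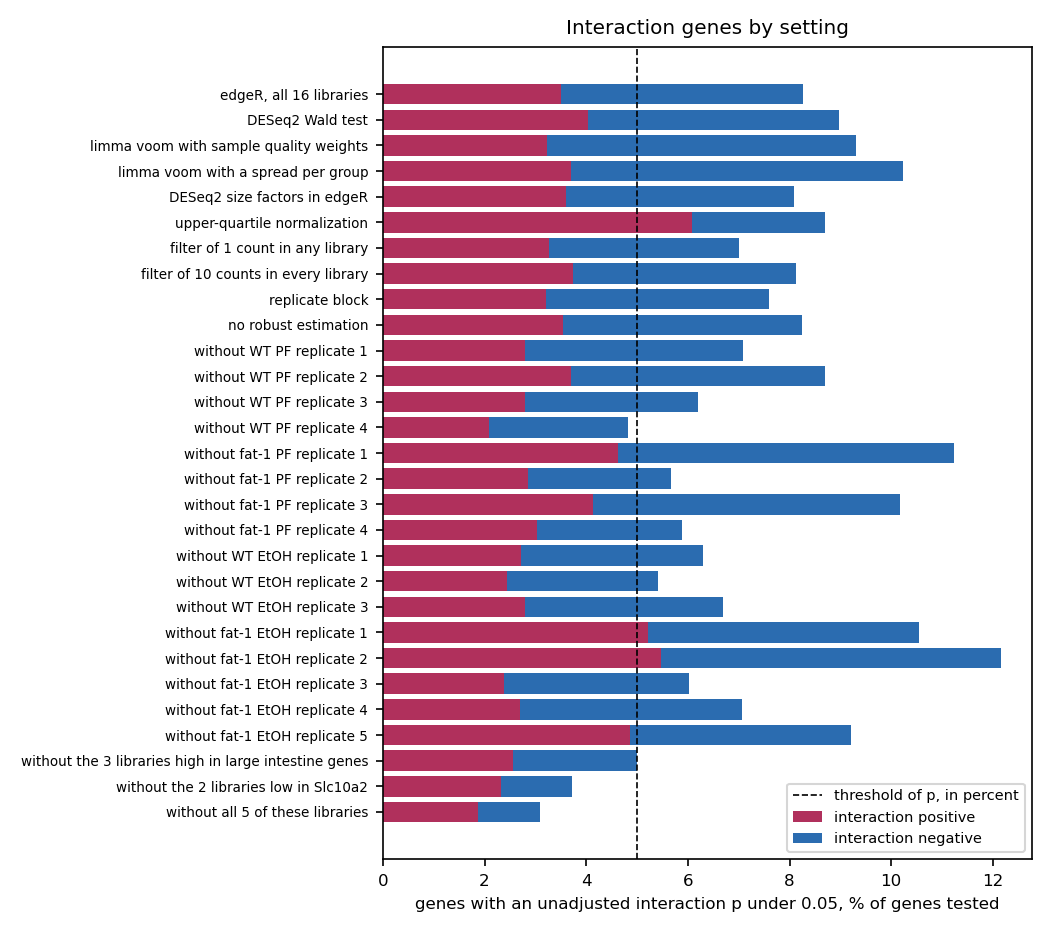
Percent of the genes tested with an unadjusted interaction p under 0.05 (x axis) under each setting (y axis), split into positive (red) and negative (blue) values, with the p threshold in percent as a dashed line. The bar for all 16 libraries ends at 8.26%, the bars that leave out 1 mouse run from 4.82% to 12.2%, and the bar without all 5 libraries that stood apart ends at 3.1%.

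This result has a stated precision. The standard error (SE) of the interaction log2 fold change had a median of 0.28 over genes (10th to 90th percentile 0.15 to 0.78), since it adds the errors of 4 group means. For 7659 genes (55.5%), the 95% interval lay within -1 and 1, so that a 2-fold difference in response lay outside it. For the other genes the interval reached beyond this range, so that a 2-fold difference was not excluded. An interaction of 1 or more in size was estimated for 1179 genes, of which 332 had an unadjusted p under 0.05.

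Across all genes tested, the fat-1 response was the larger one in size in 76.4%, with a median absolute log2 fold change of 0.39 in fat-1 and 0.21 in WT mice. With the 5 libraries left out it was the larger one in 63.3% of 13716 genes, with medians of 0.31 and 0.24. The genotypes responded in opposite directions in 21.2% of all genes, and in 23.0% without the 5. The 1141 genes with an unadjusted p under 0.05 were picked by the difference between the responses, so the counts that follow describe them and test nothing. Their response was larger in fat-1 than in WT mice in 95.8% and opposite in direction in 257 (22.5%). In the EtOH comparison of fat-1 mice alone 1036 of them were DEGs (adjusted p of 0.05 or less), where 37.4% of all genes were, and in that of WT mice 1 was, where 0.0796% of all genes were. The fat-1 DEGs were split evenly, 18.7% of all genes being higher and 18.8% lower with EtOH. That a gene was a DEG in fat-1 mice and not in WT mice is therefore no test of a difference, and of the 5170 fat-1 DEGs 0 passed the test of the difference itself.

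**Figure D2:**
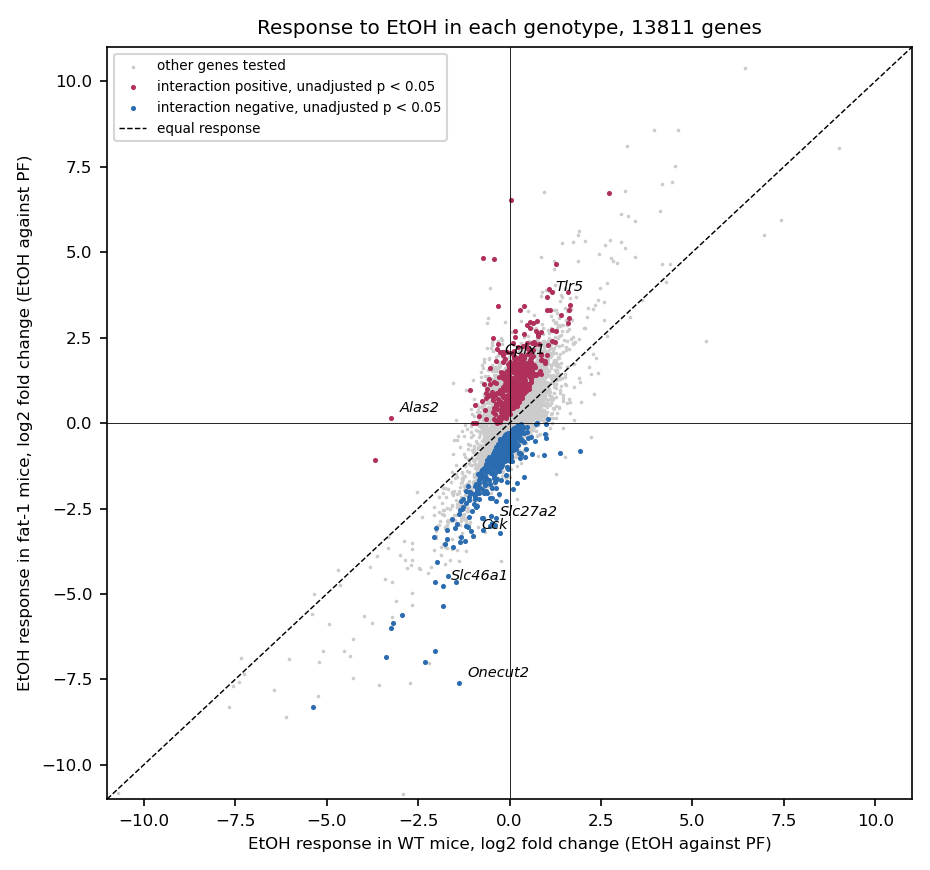
Log2 fold change of EtOH against PF in WT mice (x axis) and in fat-1 mice (y axis) for each of the 13811 genes tested; red and blue points have an unadjusted interaction p under 0.05 (483 positive, 658 negative) and the dashed line marks equal responses. The coloured points lie mostly near 0 on the x axis and away from 0 on the y axis, and no point passed after adjustment.

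The same interaction can be read the other way, as the genotype difference in EtOH mice minus that in PF mice. Over all genes, the genotype difference was larger in PF than in EtOH mice in 51.1% (53.6% without the 5 libraries), and it had opposite signs in the 2 diets in 50.1% (48.3%). Among the 1141 genes, which were picked by the change of this difference, it was larger in PF mice in 70.8%. Among the 658 negative ones that share was 85.3%, with a median absolute genotype difference of 0.43 (log2) in PF and 0.14 in EtOH mice. The sign of the interaction did not depend on the log scale for any of the 1141: 0 of them had the opposite sign as a difference of differences in CPM, where 3.06% of all genes did. Fat-1 PF mice 2 and 4, which stood apart on the region genes, are 2 of the 4 fat-1 PF mice, and their part in the shares over the 1141 was not tested.

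Of the positive interactions, the 15 genes with the smallest p and more than 3 counts in some mouse of every group were Mfsd12, Zbtb4, Cplx1, Sema3a, Ski, Flrt3, Sh3tc2, Eid1, Prox1, Smo, Iffo2, Klc1, Rassf9, Arhgef40 and Flrt2. They include nuclear regulators (Zbtb4, Ski, Eid1, Prox1), cell guidance and adhesion proteins (Sema3a, Flrt3, Flrt2) and the Hedgehog transducer Smo. By the mean, each lay below the WT level in fat-1 mice on the PF diet and above it on EtOH. The PF groups did not overlap in 13 of the 15, where they did not overlap in 6.87% of all genes, and the EtOH groups did not overlap in 5, where the share was 2.45%. These genes were picked by their interaction, so the counts describe them and test nothing. Each of the 15 had an edgeR adjusted p of 0.595.

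Mfsd12 (chr10:81357491-81366225, + strand, GRCm38; positions are those of GENCODE M21), a lysosomal membrane protein that takes up cysteine, had the smallest p of all genes. It was at 19.3, 19.6, 20.7 and 20.7 CPM in WT PF mice, 14.7, 11.8, 16.8 and 16.2 in fat-1 PF mice, 15.0, 14.4 and 17.6 in WT EtOH mice and 21.2, 18.2, 23.9, 24.0 and 19.5 in fat-1 EtOH mice. All fat-1 mice lay below all WT mice on the PF diet and above all of them on EtOH. The log2 fold change was -0.35 ± 0.14 (SE) in WT and 0.52 ± 0.12 in fat-1 mice, an interaction of 0.87 ± 0.18 (95% interval 0.49 to 1.26, unadjusted p = 0.000232). The exact permutation test, which shuffles genotype labels within each diet and whose null is no genotype effect in either diet, gave p = 0.00051 for Mfsd12, where 0.000255 is the smallest it can give. Without the 5 libraries that stood apart the interaction of Mfsd12 was 0.62 (unadjusted p = 0.00587).

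Zbtb4 (chr11:69765912-69784023, + strand), a repressor that binds methylated DNA, had the same arrangement. It was at 22.1, 21.5, 26.0 and 25.8 CPM in WT PF mice, 16.6, 18.2, 20.8 and 17.8 in fat-1 PF mice, 22.3, 26.6 and 27.5 in WT EtOH mice and 29.2, 29.8, 35.6, 34.3 and 38.3 in fat-1 EtOH mice. The genotypes did not overlap in either diet, and in opposite order. EtOH changed it by 0.09 in WT and by 0.86 in fat-1 mice (log2), an interaction of 0.77 ± 0.17 (SE), which was 0.74 without the 5 libraries.

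Cplx1, a complexin that clamps and triggers vesicle release, had the largest interaction of the 15, 2.19 ± 0.57 (95% interval 0.98 to 3.41), at a low level. It was at 0.765, 0.905, 1.00 and 0.831 CPM in WT PF mice and at 0.424, 0.281, 0.547 and 0.368 CPM in fat-1 PF mice. The EtOH groups were at 0.537, 0.735 and 0.756 CPM (WT) and 0.950, 1.36, 2.38, 1.96 and 0.684 CPM (fat-1), and overlapped. It fell under the count filter once the 3 libraries high in large intestine genes were left out.

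Sema3a, a secreted guidance cue for axons, was at 1.68 ± 0.60 CPM (SD, n = 4) in WT PF mice, 0.864 ± 0.129 (n = 4) in fat-1 PF mice, 2.28 ± 0.364 (n = 3) in WT EtOH mice and 4.24 ± 1.55 (n = 5) in fat-1 EtOH mice, an interaction of 1.83 ± 0.48 (SE). Prox1, a homeobox factor of lymphatic endothelium and of some endocrine cells, was at 3.64 to 4.30 CPM in WT PF mice and 1.96 to 2.65 CPM in fat-1 PF mice and overlapped between the genotypes on EtOH, with an interaction of 1.07 ± 0.30. Smo was at 9.40 to 11.5 CPM in WT PF mice and 5.19 to 8.06 CPM in fat-1 PF mice, with an interaction of 0.99 ± 0.28. Ski, a co-repressor of TGF-β signalling, had the smallest of these interactions, 0.44 ± 0.12. Its values ran from 80.6 to 94.5 CPM in WT PF mice and only from 69.6 to 72.7 CPM in fat-1 PF mice, and it was the 1 gene of the 15 that was no DEG of the fat-1 response (edgeR adjusted p = 0.11).

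The remaining positive genes had interactions between 0.51 (Klc1, a kinesin light chain) and 1.87 (Rassf9, a Ras association protein). Flrt3 and Flrt2, leucine-rich repeat proteins of cell adhesion, had 1.20 ± 0.33 and 1.21 ± 0.35. Flrt2 shows the kind in which the PF groups carried the value: it was at 2.38 to 4.68 CPM in WT PF mice and 1.23 to 1.91 CPM in fat-1 PF mice, while the EtOH groups had nearly the same mean, 3.57 and 3.67 CPM. Iffo2 shows the kind in which a pair of mice set the size: fat-1 EtOH mice 3 and 4 were at 14.02 and 16.6 CPM and the other fat-1 EtOH mice at 7.65 to 7.89 CPM, still above the 5.67 to 6.89 CPM of WT EtOH mice. The interaction of Iffo2 was 1.23 with all libraries and 0.82 without the 5.

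**Figure D3:**
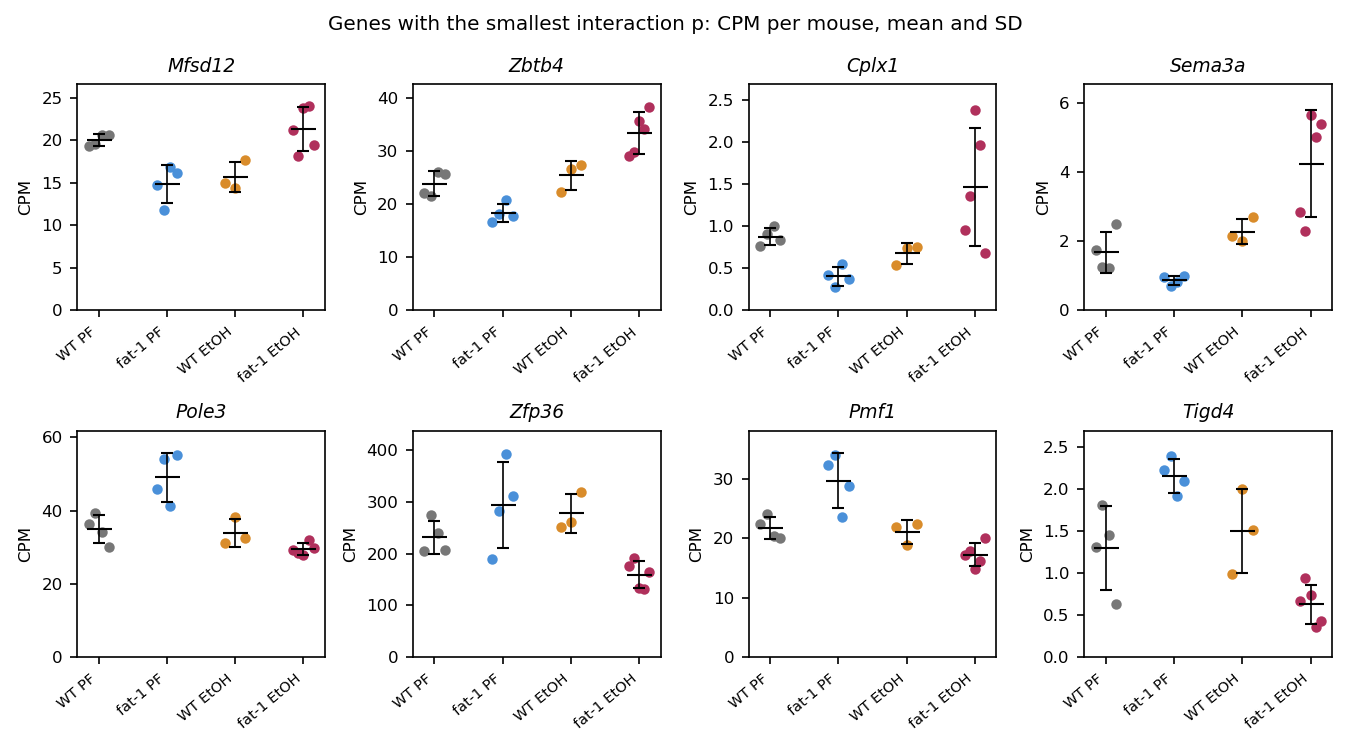
CPM per mouse (y axis, linear, from 0) by group (x axis) for the 4 positive (upper row) and 4 negative (lower row) interaction genes with the smallest p; points are mice, the long tick is the mean and the bars are ±1 SD. In Mfsd12 the fat-1 mice sit below WT on the PF diet (11.8 to 16.8 against 19.3 to 20.7 CPM) and above WT on EtOH, and in Pole3 the order is the reverse on the PF diet.

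Of the negative interactions, the 15 genes by the same rule were Pole3, Zfp36, Pmf1, Tigd4, Gin1, Nmnat1, Mrpl45, Gadd45a, Ccdc28a, Slc27a2, Cldnd1, 2310030G06Rik, Ndufa4, Nat2 and Mrpl16. They include genes of DNA replication and chromosome segregation (Pole3, Pmf1), of NAD synthesis (Nmnat1) and of mitochondria (Mrpl45, Mrpl16, Ndufa4), and the stress-response genes Zfp36 and Gadd45a. By the mean, each lay above the WT level in fat-1 mice on the PF diet and below it on EtOH, and all 15 were DEGs that fell with EtOH in fat-1 mice. In 13 of the 15 the genotype difference was larger in PF than in EtOH mice. The PF groups did not overlap in 8 (6.87% of all genes) and the EtOH groups in 3 (2.45% of all genes), which again describes genes picked by their interaction and tests nothing.

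Pole3 (chr4:62522649-62525068, - strand), a histone-fold subunit of DNA polymerase epsilon, had the smallest p of the negative genes. It was at 36.4, 39.4, 34.1 and 30.0 CPM in WT PF mice, 45.8, 54.2, 41.1 and 55.1 in fat-1 PF mice, 31.2, 38.3 and 32.4 in WT EtOH mice and 29.2, 28.4, 27.8, 32.0 and 29.7 in fat-1 EtOH mice. The PF groups did not overlap and the EtOH groups did. EtOH changed Pole3 by -0.04 in WT and by -0.74 in fat-1 mice (log2), an interaction of -0.69 ± 0.16 (95% interval -1.04 to -0.35), with an exact permutation p of 0.00051. It was -0.44 without the 5 libraries.

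Zfp36 (chr7:28376784-28380253, - strand) encodes tristetraprolin, which speeds the decay of cytokine mRNAs with AU-rich elements. Unlike most of the 15, its difference lay mainly in the EtOH mice. It was at 205, 274, 239 and 208 CPM in WT PF mice and 189, 282, 392 and 312 CPM in fat-1 PF mice, which overlapped. On EtOH it was at 251, 262 and 320 CPM in WT mice and 176, 191, 133, 131 and 165 CPM in fat-1 mice, so that every fat-1 EtOH mouse lay below every WT EtOH mouse. The interaction was -1.15 ± 0.27 (SE), and -1.01 without the 5 libraries (unadjusted p = 0.014).

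Tigd4, derived from a transposase, did not overlap between genotypes in either diet, at 0.624 to 1.81 CPM in WT PF mice, 1.91 to 2.39 CPM in fat-1 PF mice, 0.985 to 1.99 CPM in WT EtOH mice and 0.357 to 0.936 CPM in fat-1 EtOH mice. Its interaction was -1.97 ± 0.50, and its exact permutation p of 0.000255 was the smallest that the arrangements can give. Gadd45a, a growth-arrest gene of the DNA damage response, was at 60.8 to 77.6 CPM in WT PF mice, 74.7 to 113 CPM in fat-1 PF mice, 53.1 to 79.9 CPM in WT EtOH mice and 43.6 to 59.1 CPM in fat-1 EtOH mice. The interaction of Gadd45a was -0.83 ± 0.22 and -0.84 without the 5 libraries. Nmnat1, the nuclear NAD synthesis enzyme, shows the PF side alone: it was at 8.15 to 10.7 CPM in WT PF mice and 12.98 to 20.6 CPM in fat-1 PF mice, while WT EtOH mice had 9.97 ± 0.418 CPM (SD, n = 3) and fat-1 EtOH mice 9.82 ± 1.37 CPM (SD, n = 5).

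Ndufa4, a subunit of the respiratory chain, was at 258 ± 35.4 CPM (SD, n = 4) in WT PF mice, 394 ± 67.1 (n = 4) in fat-1 PF mice, 185 ± 14.02 (n = 3) in WT EtOH mice and 172 ± 18.7 (n = 5) in fat-1 EtOH mice, an interaction of -0.71 ± 0.20 (SE). The mitochondrial ribosomal proteins Mrpl45 and Mrpl16 had -0.45 ± 0.12 and -0.51 ± 0.14, the smallest sizes together with the 0.44 of Ski. Slc27a2, which imports and activates long-chain fatty acids, had the largest of the negative set, -2.43 ± 0.66. It was at 52.9, 39.95, 31.9 and 18.1 CPM in WT PF mice and at 71.4, 224, 36.6 and 223 CPM in fat-1 PF mice. The highest values of Slc27a2 were those of fat-1 PF mice 2 and 4, and without these 2 the interaction was -1.08 (unadjusted p = 0.034). Without all 5 libraries it was -0.92 (unadjusted p = 0.142).

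Over the 30 genes together, 29 were tested without the 5 libraries, all 29 kept their sign and 22 kept an unadjusted p under 0.05. Those that did not were Klc1, Nmnat1 (-0.52), Slc27a2, 2310030G06Rik, Ndufa4 (-0.40), Nat2 and Mrpl16. Flrt3 and Smo kept it with smaller values, 0.56 and 0.64. None of the 30 was moved by over 1.5 times by any 1 mouse. The exact permutation p ran from 0.000255 to 0.0253. The 30 were picked by their p over all 16 libraries, and these fits and permutations use the same mice. Kept signs and small p therefore follow in part from the picking and are no independent support. With the counting's use of the read strand not stated, reads of genes that overlap a gene on the other strand could not be told apart. Among the genes with values in the text this concerns Mfsd12 (with 4930404N11Rik), Flrt3 (inside Macrod2), Eid1 (inside Shc4), Tigd4, Nmnat1, Il18, Aim2, Acaa1a, Nr1i3 and Alas2 (with Apex2), among others. Iffo2 overlaps Gm21969 on its own strand.

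The other genes are given by lists of pathways, cell types and gut regions. A list's median interaction stands beside 0.01, the median of all genes tested, and its counts beside the 3.5% positive and 4.76% negative of all genes at an unadjusted p under 0.05. Where the interaction of a gene described from here on is given without the 5 libraries, or without fat-1 PF mice 2 and 4, and with no p, its unadjusted p was 0.05 or more. No member of any list had an adjusted p of 0.05 or less in edgeR's test.

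**Figure D4:**
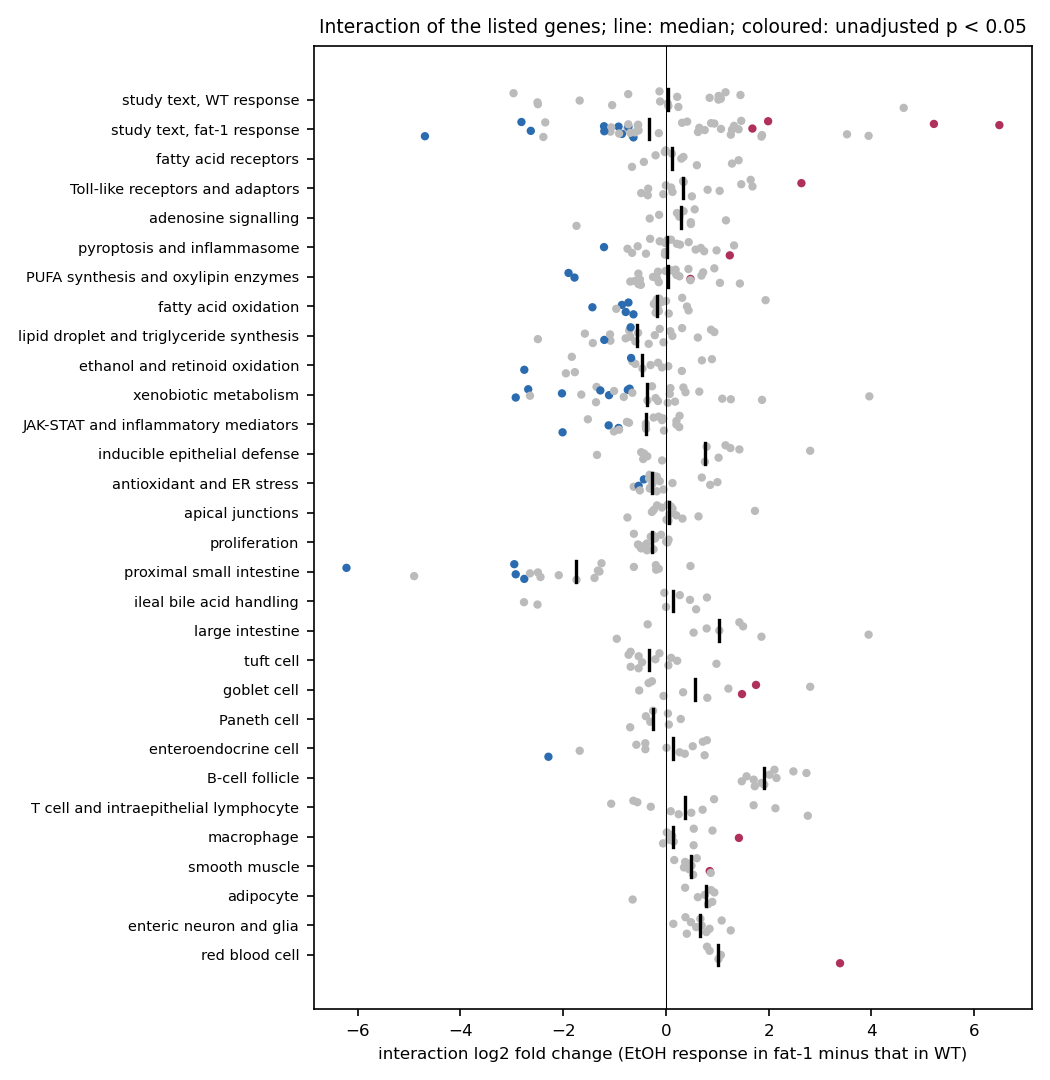
Interaction log2 fold change (x axis) of each tested member of 30 gene lists (y axis); grey points have an unadjusted p of 0.05 or more, red and blue points an unadjusted p under 0.05, and the black line is the median of the list. The median of the proximal small intestine list lies at -1.74 and that of the B-cell follicle list at 1.92, while the 14 pathway medians lie between -0.57 and 0.76.

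Of the pathway and marker lists, xenobiotic metabolism had the most members that were negative at an unadjusted p under 0.05: 7 of 29 tested genes (Nr1i2, Gsta1, Cyp3a13, Nr1i3, Cyp2b10, Gstt1 and Sult1b1), with 0 positive and a median of -0.36. The receptors Nr1i2 and Nr1i3, which switch on genes of this program, were among them, and Ahr, a further receptor of the list, was not. Nr1i2 (the pregnane X receptor) was at 144, 156, 127 and 116 CPM in WT PF mice, 160, 269, 155 and 215 in fat-1 PF mice, 114, 137 and 107 in WT EtOH mice and 110, 126, 95.9, 112 and 82.4 in fat-1 EtOH mice. Nr1i2 was highest in fat-1 PF mice 2 and 4, and its interaction of -0.74 ± 0.25 was -0.28 without the 5 libraries. Nr1i3 (the constitutive androstane receptor) was at 63.1, 44.7, 33.5 and 7.27 CPM in WT PF mice, 51.1, 183, 36.1 and 150 in fat-1 PF mice, 4.75, 5.46 and 2.18 in WT EtOH mice and 2.38, 3.23, 0.410, 0.981 and 2.05 in fat-1 EtOH mice. Its EtOH response was -3.18 in WT mice (log2, edgeR adjusted p = 0.155) and -5.86 in fat-1 mice, where it passed, and its interaction of -2.68 ± 0.99 was -0.66 without the 5 libraries. Cyp3a13, a drug-oxidizing cytochrome, had -1.11 ± 0.39 (-0.23 without the 5) and Gsta1, a glutathione transferase with near-identical paralogues that could share its reads, -2.02 ± 0.71 (-1.17 without the 5). Without the 5 libraries, 0 of the 29 had an unadjusted p under 0.05 and the median was -0.10.

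At an unadjusted p under 0.05, fatty acid oxidation had 5 negative and 0 positive members of 22 (Crat, Acadl, Acaa1a, Acox2 and Hadh), with a median of -0.17 (-0.26 without the 5 libraries). Acox2, a peroxisomal oxidase of branched fatty acids and bile acid precursors, was at 16.3, 23.0, 20.9 and 17.98 CPM in WT PF mice, 34.8, 38.3, 27.7 and 35.6 in fat-1 PF mice, 17.3, 19.5 and 17.8 in WT EtOH mice and 17.9, 19.8, 3.12, 3.57 and 14.6 in fat-1 EtOH mice. The PF groups did not overlap, and the lowest values were those of fat-1 EtOH mice 3 and 4. Its interaction was -1.43 ± 0.64, and -0.69 without the 5 libraries (unadjusted p = 0.017), the 1 member of this list with a p under 0.05 there. Acadl, a mitochondrial acyl-CoA dehydrogenase, was at 113 to 151 CPM in WT PF mice and 191 to 280 CPM in fat-1 PF mice and had -0.78 ± 0.30. That value was moved to -0.47 by leaving out WT EtOH mouse 2 and to -0.40 by leaving out the 5. Crat, which moves acyl groups to carnitine, had -0.86 ± 0.32 with all libraries and -0.29 without the 5.

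Lipid droplet and triglyceride synthesis had a median of -0.57, with 16 of 22 members below 0 and 2 at an unadjusted p under 0.05, Dgat2 and Srebf1. The median was -0.21 without fat-1 PF mice 2 and 4 and -0.08 without all 5 libraries, where 0 members had a p under 0.05. Dgat2, which makes triglyceride, was at 299, 310, 295 and 264 CPM in WT PF mice, 493, 963, 252 and 1238 in fat-1 PF mice, 191, 169 and 131 in WT EtOH mice and 150, 162, 203, 230 and 153 in fat-1 EtOH mice. Fat-1 PF mice 2 and 4 were again the highest and fat-1 PF mouse 3 lay below every WT PF mouse. The interaction of Dgat2 was -1.20 ± 0.49, and -0.22 without fat-1 PF mice 2 and 4. Srebf1, the lipid synthesis regulator, had -0.69 ± 0.32, and -0.08 without these 2 mice.

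The enzymes and receptors of PUFAs bear on what the transgene changes. Of 26 tested genes of PUFA synthesis and oxylipin enzymes, 1 was positive and 2 negative at an unadjusted p under 0.05, and the median was 0.05 (0.08 without the 5). Elovl5, which elongates PUFAs, was at 38.0, 32.1, 49.4 and 50.0 CPM in WT PF mice, 42.6, 28.6, 37.9 and 33.4 in fat-1 PF mice, 53.6, 46.3 and 46.3 in WT EtOH mice and 55.7, 60.6, 56.3, 61.1 and 51.7 in fat-1 EtOH mice. Both diets overlapped between the genotypes, and the interaction was 0.48 ± 0.21 (0.24 without the 5 libraries). Ephx2, the soluble epoxide hydrolase, had -1.78 ± 0.61, which was -0.57 without fat-1 PF mice 2 and 4 and -0.58 without the 5 libraries. Ltc4s, the leukotriene C4 synthase, had -1.90 ± 0.72. Ltc4s was at 23.3 and 29.5 CPM in fat-1 PF mice 2 and 4 and between 1.85 and 6.01 CPM in the other 14 mice, and its interaction was -0.33 without the 2.

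Of the 11 tested fatty acid receptors, 0 had an unadjusted p under 0.05. Ffar4, a receptor of long-chain PUFAs, was at 8.63, 8.04, 5.33 and 11.7 CPM in WT PF mice, 5.41, 2.11, 12.7 and 3.07 in fat-1 PF mice, 7.25, 11.5 and 9.33 in WT EtOH mice and 10.9, 6.55, 37.6, 22.4 and 8.47 in fat-1 EtOH mice. Its interaction of 1.42 ± 0.83 was -0.02 without the 5 libraries, and leaving out fat-1 EtOH mouse 3 alone moved it by over 1.5 times. Ffar2, a receptor of short-chain fatty acids, had 1.29 ± 0.67 and, without the 5, 0.10. Its 2 high values, 22.6 and 21.1 CPM, were those of fat-1 EtOH mice 3 and 4.

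Ethanol and retinoid oxidation had 2 negative members of 15 at an unadjusted p under 0.05, the alcohol dehydrogenase Adh6a and the retinal reductase Rdh11, and a median of -0.46 (-0.17 without the 5 libraries, with 0 members past the threshold). Rdh11 was at 40.8 to 44.9 CPM in WT PF mice and 43.5 to 66.5 CPM in fat-1 PF mice, with an interaction of -0.68 ± 0.28 and of -0.50 without the 5 libraries. Of 19 genes of antioxidant defence and ER stress, Herpud1 (a chaperone-linked gene of ER-associated degradation) had -0.53 ± 0.20, and Sod1 (cytosolic superoxide dismutase) -0.43 ± 0.20 (-0.19 without the 5 libraries). Herpud1 was at 149 to 204 CPM in WT PF mice, 202 to 286 in fat-1 PF mice, 120 to 168 in WT EtOH mice and 117 to 149 in fat-1 EtOH mice. Its interaction was -0.50 without the 5 libraries (unadjusted p = 0.029).

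Innate sensing and inflammatory genes had few members past the unadjusted threshold, in both directions. Of 16 Toll-like receptors and adaptors, 1 was positive at that threshold, and without the 5 libraries 1 other member had an unadjusted p under 0.05. The positive one was Tlr5, the flagellin receptor. It was at 1.20, 0.792, 0.444 and 1.66 CPM in WT PF mice, 0.636, 0.842, 0.273 and 0.614 in fat-1 PF mice, 1.97, 2.31 and 2.10 in WT EtOH mice and 2.38, 1.62, 16.3, 15.4 and 2.74 in fat-1 EtOH mice. Fat-1 EtOH mice 3 and 4, also the highest in large intestine genes, stood far above the other 14 mice, and the interaction of 2.64 ± 1.11 was 1.25 without the 5 libraries (unadjusted p = 0.12). Of 21 pyroptosis and inflammasome genes, Aim2 (a DNA sensor) had 1.24 ± 0.57, with its highest values, 52.1 and 51.8 CPM, in fat-1 EtOH mice 3 and 4, and 0.42 without the 5 libraries. In the same list Il18 (a cytokine released by inflammasomes) had -1.20 ± 0.46. Il18 was at 99.7, 106, 62.3 and 47.9 CPM in WT PF mice and 107, 170, 117 and 139 in fat-1 PF mice, which did not overlap. In EtOH mice Il18 was at 35.4, 60.0 and 27.1 CPM (WT) and 44.9, 31.9, 16.2, 27.7 and 28.7 CPM (fat-1), and its interaction was -0.33 without the 5 libraries.

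The JAK-STAT and inflammatory mediators had 3 negative and 0 positive members of 20 at an unadjusted p under 0.05, and 16 of the 20 were below 0, with a median of -0.39. The 3 were secreted: Ccl20 (a chemokine of lymphoid follicles, -2.01 ± 0.77), Il34 (a macrophage growth factor, -1.11 ± 0.45) and Il15 (a cytokine of intraepithelial lymphocytes, -0.92 ± 0.38). Il15 was at 20.5 to 28.3 CPM in WT PF mice, 22.8 to 56.1 in fat-1 PF mice, 20.6 to 27.7 in WT EtOH mice and 14.9 to 30.4 in fat-1 EtOH mice. Ccl20 was highest in fat-1 PF mouse 4, at 13.9 CPM, and leaving out that mouse alone moved it to -1.09. Without the 5 libraries Ccl20, Il34 and Il15 had -0.74, -0.15 and -0.29, and the median of the list was -0.02.

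Of the 14 pathway lists, 4 had 0 members at an unadjusted p under 0.05 beside the fatty acid receptors: adenosine signalling (10 tested), inducible epithelial defense (13), apical junctions (16) and proliferation (18). Their medians were 0.30, 0.76, 0.06 and -0.27, and without the 5 libraries 0.24, 0.14, -0.02 and -0.40. In the proliferation list 14 of 18 lay below 0, within a narrow range of -0.62 (Ube2c) to 0.05. In the fit that left out the 5, 2 of its members had an unadjusted p under 0.05, the cell cycle genes Ccnb2 (-0.72, and -0.52 with all libraries) and Cdc20 (-0.64, and -0.54 with all libraries, or -0.24 without fat-1 PF mouse 1 alone), named here after their values were seen. Ada, which breaks down adenosine, had -1.74 ± 1.21 with all libraries and 0.09 without the 5, and leaving out fat-1 PF mouse 4 alone moved it by over 1.5 times. Adora2a, an adenosine receptor, had 1.17 ± 0.60, 1.86 without the 5 (unadjusted p = 0.027) and 0.66 without fat-1 EtOH mouse 5. Saa1, an acute phase protein whose reads can be split with Saa2, had a wide interval, -1.45 to 4.32. Cldn8, a tight junction claudin, was at 0.140 and 0.245 CPM in fat-1 PF mice 2 and 4 against 1.48 and 3.55 CPM in the other fat-1 PF mice. Its 1.73 ± 0.86 was 0.17 without the 5 libraries and 2.75 without fat-1 PF mouse 3.

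Genes of the proximal small intestine had the lowest median of all lists. Of the 19 tested, 18 lay below 0, with a median of -1.74, and 4 had an unadjusted p under 0.05: Onecut2, Slc46a1, Cyp2b10 and Adh6a. The median was -2.71 for the EtOH response in WT mice and -5.84 in fat-1 mice, and 1.47 for fat-1 against WT on the PF diet and -0.34 on EtOH. Without fat-1 PF mice 2 and 4 the median interaction was -0.82, and without all 5 libraries -0.21, with 0 members at an unadjusted p under 0.05.

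For 3 of these genes, Slc46a1, Cyp2b10 and Adh6a, the RefSeq promoters (GRCm38.p6) are shown because these genes moved together across the mice. The promoter of Onecut2 is not shown. Each printed sequence covers 250 bases before to 50 after the gene start of the RefSeq set, 5′ to 3′ on the gene's strand. For Slc46a1 and Cyp2b10 that start differs from the GENCODE one. Capitals mark the letters TTTATGG or TTTATTG, or their reverse complements CCATAAA and CAATAAA, the core bound by CDX factors of the intestine. These letters overlap in part with those of a TATA box. They also mark the letters AGATAA or TGATAA and the letters AGATAG or TGATAG, the core of GATA factors, searched on both strands. The GATA letters occur in the promoter of Adh6a alone, as CTATCT, the reverse complement of AGATAG, followed directly by TGATAG.
Slc46a1 promoter, chr11:78465451-78465750, + strand: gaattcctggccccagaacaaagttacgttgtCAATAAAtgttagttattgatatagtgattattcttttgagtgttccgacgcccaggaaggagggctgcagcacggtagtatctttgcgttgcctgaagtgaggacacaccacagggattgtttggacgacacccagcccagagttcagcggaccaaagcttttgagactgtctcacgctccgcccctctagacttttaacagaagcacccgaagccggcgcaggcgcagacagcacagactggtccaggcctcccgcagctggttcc
Cyp2b10 promoter, chr7:25897408-25897707, + strand: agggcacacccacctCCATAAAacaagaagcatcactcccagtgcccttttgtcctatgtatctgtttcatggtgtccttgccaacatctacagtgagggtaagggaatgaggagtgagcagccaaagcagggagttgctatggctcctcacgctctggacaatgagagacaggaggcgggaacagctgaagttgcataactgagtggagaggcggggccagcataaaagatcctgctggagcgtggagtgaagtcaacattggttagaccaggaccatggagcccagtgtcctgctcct
Adh6a promoter, chr3:138313036-138313335, + strand: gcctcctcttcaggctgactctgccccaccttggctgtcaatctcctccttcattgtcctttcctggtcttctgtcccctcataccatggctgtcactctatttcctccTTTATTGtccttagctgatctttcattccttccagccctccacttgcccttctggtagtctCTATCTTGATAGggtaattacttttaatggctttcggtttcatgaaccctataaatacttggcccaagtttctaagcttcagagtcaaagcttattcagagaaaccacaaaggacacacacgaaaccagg

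The CDX letters were found in 7 of the 15 list genes with a promoter entry (Adh6a, Apoc2, Cyp2b10, Fabp1, Pck1, Plb1 and Slc46a1) and in 7.2% of all 32851 promoters. The GATA letters were found in 7 of the 15 (Adh6a, Apoc2, Fbp1, G6pc, Lct, Pck1 and Slc2a2) and in 29.8% of all promoters. CAAAGTCCA, a core of HNF4 sites, was found in 1 of the 15 and in 0.475% of all. The list was counted by gene, with a match in any promoter of the gene, and the share over all by promoter entry, so these are unlike units. These motifs were picked after the values of the genes were known, and a match of letters is a description of the sequence, not a binding site.

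Slc46a1, the proton-coupled folate transporter of the upper small intestine, was at 71.0, 39.5, 39.99 and 18.6 CPM in WT PF mice, 97.7, 490, 45.4 and 401 in fat-1 PF mice, 11.6, 12.2 and 11.8 in WT EtOH mice and 11.6, 16.5, 4.59, 4.55 and 9.75 in fat-1 EtOH mice. Fat-1 PF mice 2 and 4 stood far above the other 14 mice, while fat-1 PF mouse 3 lay within their range, and fat-1 EtOH mice 3 and 4 were the lowest of all. The interaction was -2.95 ± 0.92 (95% interval -4.91 to -0.99), -1.10 without fat-1 PF mice 2 and 4, and -0.66 without all 5 libraries.

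Cyp2b10, a drug-oxidizing cytochrome whose near-identical relatives could share reads, fell in both genotypes. It was at 116, 41.1, 50.2 and 9.87 CPM in WT PF mice, 105, 308, 94.2 and 251 in fat-1 PF mice, 1.07, 1.89 and 1.01 in WT EtOH mice and 0.570, 1.62, 0.328, 0.178 and 0.257 in fat-1 EtOH mice. Its EtOH response was -5.37 in WT and -8.29 in fat-1 mice (log2, both past the adjusted threshold), and the interaction was -2.92 ± 1.17 (-1.21 without the 5 libraries). Adh6a was at 396, 293, 175 and 61.8 CPM in WT PF mice, 363, 1518, 257 and 1147 in fat-1 PF mice, 20.9, 31.2 and 21.3 in WT EtOH mice and 24.8, 19.1, 1.39, 1.249 and 17.5 in fat-1 EtOH mice, an interaction of -2.76 ± 1.18 and of -0.46 without the 5 libraries. Onecut2, a homeobox factor of the duodenum, was at 10.9, 45.6, 1.37 and 74.7 CPM in fat-1 PF mice, at 0.312 to 2.95 CPM in WT PF mice and at 0.420 CPM or less in EtOH mice. In fat-1 EtOH mice Onecut2 had at most 3 counts per library, so its fitted interaction of -6.22 ± 1.93 depends on the prior count and is no bound (-3.23 without the 5). The interactions of Fabp1 and Apoc2 were -2.49 and -4.90 and missed the unadjusted threshold, and Lct, which encodes lactase, had -0.14 (1.34 without the 5).

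**Figure D5:**
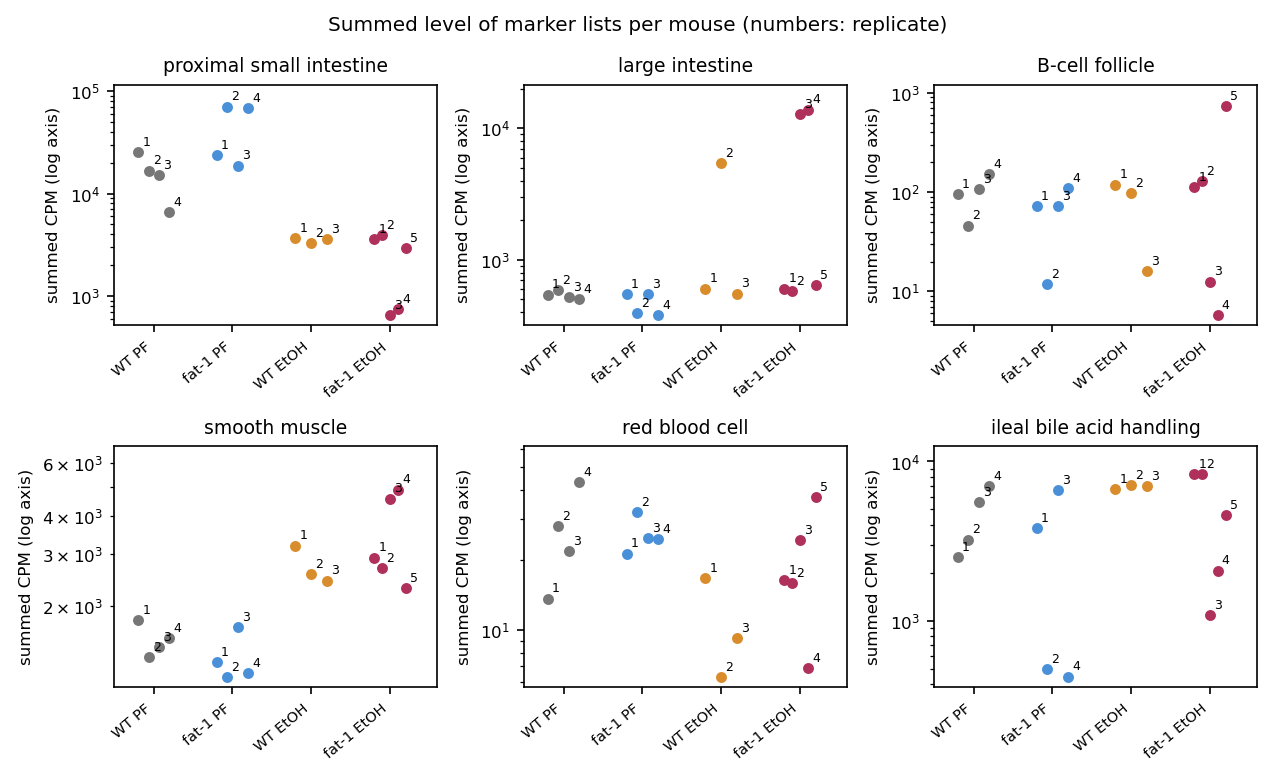
Summed CPM (y axis, log scale) of the tested members of 6 marker lists in each mouse, by group (x axis), with the replicate number beside each point. Fat-1 PF mice 2 and 4 are the highest in proximal small intestine genes (70595 and 68217 CPM) and the lowest in ileal bile acid genes, fat-1 EtOH mice 3 and 4 and WT EtOH mouse 2 are high in large intestine genes, and fat-1 EtOH mouse 5 is high in B-cell follicle genes (731 CPM).

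Genes of ileal bile acid handling had 0 of 8 members at an unadjusted p under 0.05 and a median of 0.14 (-0.05 over the 7 tested without the 5 libraries). The defining transporters Slc10a2 and Fabp6 had interactions of 0.80 and 0.0032, and of 0.21 and -0.29 without the 5. Fgf15, the hormone that the ileum releases on bile acid uptake, ranged from 0 to 74.9 CPM among the fat-1 PF mice alone, and its -2.50 ± 2.22 turned to 3.33 without fat-1 PF mouse 3 and was -3.84 without WT PF mouse 3. Nr0b2, a bile acid-induced repressor, was at 0.104 to 0.226 CPM in WT PF mice, where none had more than 3 counts, so that its interaction is no bound either.

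Of the 9 large intestine genes tested, 7 were above 0, with a median of 1.04 and 0 at an unadjusted p under 0.05. Without the 5 libraries, 3 of which stood apart by these very genes, the median was 0.39. Car1, a colonic carbonic anhydrase, was at 11157 and 12208 CPM in fat-1 EtOH mice 3 and 4, 4041 CPM in WT EtOH mouse 2, 0.950 to 79.1 CPM in the other fat-1 EtOH mice and 0.895 and 1.26 CPM in the other WT EtOH mice. On the PF diet Car1 was at 58.6, 0.113, 1.33 and 2.39 CPM in WT mice and 0.106, 0.281, 0 and 13.6 CPM in fat-1 mice. Its interaction of 3.95 ± 3.71 was moved by over 1.5 times by each of WT PF mouse 1, fat-1 PF mouse 4 and WT EtOH mouse 2. Without fat-1 PF mouse 4, alone or among the 5, no fat-1 PF mouse had more than 3 counts of Car1, so no fold is given there. Of 10 goblet cell genes, 2 were positive at an unadjusted p under 0.05, the secretory lineage factors Atoh1 (1.48 ± 0.57) and Spdef (1.76 ± 0.81). Spdef was at 200 and 113 CPM in fat-1 EtOH mice 3 and 4 and between 19.5 and 31.3 CPM in the other 14 mice, and its interaction was -0.01 without the 5 libraries and 1.06 without fat-1 EtOH mouse 3. That of Atoh1 was 0.28. The median of the goblet cell list was 0.57 with all libraries and -0.18 without the 5. The antimicrobial Paneth cell genes summed to 109 and 120 CPM in these same 2 mice and to between 6531 and 27379 CPM in the others. Their median interaction was -0.25 (-0.31 without the 5), with 0 of 7 past the threshold, and their intervals were wide (-3.69 to 2.30 for Defa17).

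Cck, the hormone that answers fat in the upper gut, was the 1 enteroendocrine gene of 12 past the unadjusted threshold (exact permutation p = 0.013). It was at 10.1, 7.81, 6.998 and 4.36 CPM in WT PF mice, 11.02, 34.95, 7.11 and 44.8 in fat-1 PF mice, 3.94, 3.04 and 3.86 in WT EtOH mice and 2.66, 3.23, 1.48, 1.96 and 3.08 in fat-1 EtOH mice. Its interaction of -2.29 ± 0.69 was -0.86 without fat-1 PF mice 2 and 4, which were again the highest. None of 12 tuft cell genes passed, with a median of -0.33 that turned to 0.12 without the 5 libraries. There 1 member had an unadjusted p under 0.05, the cyclooxygenase gene Ptgs1 (0.36, and 0.10 with all libraries), also named after its values were seen. The chemosensory G protein Gnat3 had 0.98 ± 0.47 with all libraries.

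Several lists of non-epithelial cells had a positive value for every member tested, with few past the threshold. In bulk tissue, fewer cells of a type and less RNA per cell cannot be told apart. All 11 B-cell follicle genes were positive, with a median of 1.92 and 0 at an unadjusted p under 0.05. The median was 2.81 without the 5 libraries, where 1 member had such a p. They summed to 731 CPM in fat-1 EtOH mouse 5 and to 5.799 to 152 CPM in the other 15 mice. Ms4a1 (CD20) was at 14.7, 14.4, 0.984, 0.268 and 90.7 CPM in fat-1 EtOH mice and at 0.756 to 21.4 CPM in WT mice, and its interaction of 2.48 was at its lowest, 0.81, with 1 mouse left out. Fcer2a went from 2.74 to 0.80 at the lowest, and leaving out fat-1 EtOH mouse 5 moved both by over 1.5 times. The same mouse was the highest in T cell genes (314 CPM summed, against 33.3 to 194 CPM in the others) and in adipocyte and macrophage genes (1154 and 792 CPM). Of 12 T cell genes, 8 were positive and 4 negative, with 0 at an unadjusted p under 0.05. Their median was 0.37 (1.34 without the 5 libraries). The largest in size were Cd2 at 2.76 ± 1.44 (0.61 without fat-1 EtOH mouse 5) and Cd5 at 2.13 ± 1.54 (-0.19 without that mouse).

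All 10 smooth muscle genes were positive with a median of 0.48, and 1, the contractile gene Cnn1, had an unadjusted p under 0.05. Their sum was 4575 and 4905 CPM in fat-1 EtOH mice 3 and 4, 2307 to 2910 CPM in the other fat-1 EtOH mice and 2438 to 3191 CPM in WT EtOH mice. Without the 5 libraries Cnn1 had 0.13 and the median was -0.07. All 11 genes of enteric neurons and glia were positive too, with a median of 0.67 (0.20 without the 5) and a sum of 94.1 and 90.2 CPM in the same 2 mice and 37.1 to 55.8 CPM in the other 14. Of 10 macrophage genes, 9 were positive, with a median of 0.14 (0.93 without the 5 libraries) and 1, Cd163, at an unadjusted p under 0.05. In the fit without the 5, 1 other member had such a p. Cd163, a scavenger receptor of resident macrophages, was at 1.75 to 5.30 CPM in WT PF mice and 1.12 to 1.503 CPM in fat-1 PF mice, which did not overlap, and had 1.42 ± 0.56 and, without the 5 libraries, 1.52. Among 8 adipocyte genes 7 were positive and 0 passed, with a median of 0.79 (1.20 without the 5 libraries).

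In the red blood cell genes the larger EtOH responses were those of WT mice, none of which passed after adjustment. All 5 were positive with a median of 1.02 (1.04 without the 5 libraries), and the median EtOH response was -1.30 in WT and -0.25 in fat-1 mice. Alas2, the heme synthesis enzyme of red cell precursors, was at 0.546, 0.340, 0.778 and 2.18 CPM in WT PF mice, 0.742, 0.421, 0.820 and 0.491 in fat-1 PF mice, 0.179, 0 and 0.0840 in WT EtOH mice and 0.475, 0.425, 0.902, 0.178 and 1.45 in fat-1 EtOH mice. No WT EtOH mouse had more than 3 counts of Alas2, so that the fitted 3.39 ± 1.12 (unadjusted p = 0.00874) is no bound. The globin genes, whose copies share reads, were between 0.80 and 1.07 and did not pass. That of Hba-a1, 1.02, was 0.64 without WT PF mouse 4. Hba-a1 was at 4.52 ± 2.43 CPM (SD, n = 4) in WT PF mice, 4.25 ± 0.684 (n = 4) in fat-1 PF mice, 1.68 ± 0.839 (n = 3) in WT EtOH mice and 3.23 ± 1.91 (n = 5) in fat-1 EtOH mice. The list summed to 6.30 to 16.7 CPM in WT EtOH mice and 6.87 to 37.2 CPM in fat-1 EtOH mice, which overlapped.

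Last, part of the genes that the study text names for the WT or the fat-1 response were set against the test of the difference. Left out were, among others, the immunoglobulin genes and Rn7sk (WT) and Ccl20, Tlr5 and Tlr12 (fat-1). Ccl20 and Tlr5 are described above, both at an unadjusted p under 0.05. The study chose the genes it names on these samples, so the lists are no independent evidence. Of 19 tested genes on the list for WT mice, 0 had an unadjusted p under 0.05, with 11 above 0 and 8 below. Their median interaction was 0.05. Without the 5 libraries 2 genes had such a p and the median was 0.37. Lcn2, Slpi and Ly6d, which the study names as lowered in WT mice only, had 1.03, 1.16 and 1.45, in the direction of its account. Ly6d was 1 of the 2 genes, at 2.21 without the 5 (unadjusted p = 0.021), and was 0.46 without fat-1 EtOH mouse 5. The member nearest to the threshold was Fabp1, a fatty acid binding protein, at -2.49 ± 1.17, which was -0.84 without fat-1 PF mice 2 and 4 and -0.79 without the 5 libraries. It was at 1544, 676, 386 and 32.9 CPM in WT PF mice, 1865, 6429, 766 and 7520 in fat-1 PF mice, 11.37, 7.24 and 9.998 in WT EtOH mice and 13.1, 8.16, 9.02, 7.40 and 15.7 in fat-1 EtOH mice. The EtOH groups of Fabp1 overlapped at a low level, and so did the PF groups at a high one. Dclk1, a tuft cell kinase, had an interaction of 0.05 ± 0.35. It was at 11.1 ± 2.97 CPM (SD, n = 4) in WT PF mice, 10.4 ± 2.29 (n = 4) in fat-1 PF mice, 20.8 ± 6.93 (n = 3) in WT EtOH mice and 20.2 ± 3.79 (n = 5) in fat-1 EtOH mice. Its 95% interval was -0.70 to 0.80. Slc37a2, a sugar phosphate exchanger, was at 253 CPM in WT EtOH mouse 2 alone of its group, and its -2.97 ± 2.08 turned to 2.43 without that mouse.

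On the list for fat-1 mice, which leaves out Ccl20 and Tlr5, 44 genes were tested. At an unadjusted p under 0.05, 4 were positive and 9 negative. After adjustment 0 passed, and the median was -0.33. The positive ones were Ccn3, Plet1, Gcnt1 and Tacr2 and the negative ones Bbox1, Slc4a5, Dnah2, Il18, Hadh, Crat, Acaa1a, Il15 and Dgat2. Tacr2, the neurokinin A receptor of gut muscle, had the smallest p (0.00553). It was at 1.31, 1.24, 1.11 and 0.935 CPM in WT PF mice, 0.530, 0.983, 0.273 and 0.368 in fat-1 PF mice, 1.16, 1.57 and 1.01 in WT EtOH mice and 1.81, 2.21, 2.95, 3.75 and 0.941 in fat-1 EtOH mice. Its interaction of 1.99 ± 0.61 was 2.05 without the 5 libraries (unadjusted p = 0.0096). Gcnt1, which builds branched mucin-type glycans, was at 15.2 to 36.2 CPM in WT PF mice, 3.09 to 14.1 CPM in fat-1 PF mice, 25.7 to 44.0 CPM in WT EtOH mice and 24.7 to 50.6 CPM in fat-1 EtOH mice. The PF groups of Gcnt1 did not overlap, and its 1.68 ± 0.55 was 1.17 without the 5 libraries. Ccn3, a matricellular protein that the study calls Nov, was at 221 and 111 CPM in fat-1 EtOH mice 3 and 4 and between 0.281 and 2.65 CPM in the other 14 mice, and its 6.49 ± 2.46 was 0.97 without the 5. Slc4a5, a bicarbonate transporter, was at 61.6 and 42.7 CPM in fat-1 PF mice 2 and 4 and had -2.81 ± 1.05, which was -0.76 without the 5. Over the 43 of these genes tested without the 5 libraries, 2 had an unadjusted p under 0.05 and the median was 0.07.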

How the data were processed

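Ileum RNA from 16 mice was sequenced as poly(A)-selected, dUTP-stranded libraries, 1 per mouse. The authors deposited raw counts of reads per Ensembl gene, named as htseq counts, from tophat2 alignments to mm10. The settings of the counting are not given in the sources used here. Symbols and positions came from GENCODE M21 (GRCm38), in which 26 of 21965 genes are absent.

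Counts were filtered (filterByExpr), scaled (TMM) and fitted with 1 mean per group in edgeR 4.0.16 (R 4.3.3, quasi-likelihood, robust), with Benjamini-Hochberg adjustment at 0.05. Exact two-sided permutation used log2(CPM + 0.5) and 3920 arrangements. P-values measure the spread between mice. Alternatives used DESeq2 1.42.0, limma 3.58.1, other scalings, filters (1 count in any, 10 in every library), the replicate block and libraries left out. The fit was tested on simulated data.

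Named genes are the 15 smallest p per direction, up to 4 per list with p under 0.05 (or the 2 largest where none was), and the 6 smallest and 2 largest p per study list. Apoc2, Lct, Slc10a2 and Fabp6 were added after their values were seen. The shares over all genes without the 5 libraries that stood apart were also added after the data were seen. Members and lists were chosen with earlier results of these data known. Siglec5, Pla2g2a and Ddit3 were not analysed here. Figures: matplotlib 3.10.9.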

Additional observations from a re-analysis of the deposited data

Results flagged for a closer look

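Among 306 groups of named genes, 9 (2.94%) held 1 mouse far from the others of its group by Dixon's criterion on log2(CPM + 0.5), which chance alone gives in about 1 in 20 groups. These are WT PF, fat-1 PF and fat-1 EtOH groups, and the WT EtOH group, of 3 mice, was not examined. In WT PF mice, mouse 3 had 0.444 CPM of Ccn3 (others 1.31 to 1.47), and mouse 4 had 20.5 CPM of Il15 (others 27.4 to 28.3) and 0.104 CPM of Nr0b2 (others 0.219 to 0.226). In fat-1 PF mice, mouse 4 had 13.6 CPM of Car1 (others 0 to 0.281), mouse 2 had 0.561 CPM of Ms4a1 (others 8.34 to 9.57) and mouse 3 had 94.0 CPM of Cnn1 (others 67.0 to 69.5). In fat-1 EtOH mice, mouse 5 had 5.22 CPM of Adora2a (others 1.56 to 1.79) and 24.0 CPM of Cd2 (others 0.624 to 2.21), and mouse 1 had 66.3 CPM of Srebf1 (others 77.0 to 80.7).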

How the results depend on the processing

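The count of 0 adjusted genes was the same in 28 alternatives. The unadjusted count of 1141 stayed within 1.5 times in the 9 that changed the test, scaling or filter, and ran from 664 to 1676 with 1 mouse left out. It was 689 without the 3 libraries high in large intestine genes, 526 without the 2 low in bile acid genes and 425 without all 5. No label says that a shared replicate number pairs mice, and deviations of mice with the same number had a mean correlation of -0.022 (21 pairs, against 0.007 over 74 others). The replicate block gave 1048 genes. Of 2811 values of named genes under alternatives, 2766 kept their direction. Those that did not were, with voom and quality weights, Dclk1 (-0.060), Fgf13 (-0.23), Pnpla3 (-0.80), Fgf15 (1.09), Plin1 (-0.14) and Cfd (-0.25). With the replicate block they were Dclk1 (-0.013), Cyp2c66 (1.10), Cd5 (-0.26) and Cfd (-0.013). Without the 3 libraries they were Dclk1 (-0.041), Fgf13 (-0.073), Pnpla3 (-0.46) and Itln1 (0.13), without the 2 Cyp2c66 (0.96), and without all 5 Slc37a2 (0.69), Cyp2c66 (0.30), Ffar4 (-0.023), Ada (0.086), Sh2d6 (0.10) and Spdef (-0.0076). With 1 mouse left out, 7 genes turned, within -4.17 to 2.43 (Slc37a2), -0.19 to 0.28 (Dclk1), -0.24 to 0.25 (Fgf13), -0.39 to 1.76 (Pnpla3), -1.21 to 3.05 (Cyp2c66), -3.84 to 3.33 (Fgf15) and -0.19 to 2.43 (Cd5). The cause was not tested. With all libraries, the 95% interval of each of these genes except Spdef includes 0.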
